A study of Homo sapiens with 28 samples.

Results

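The desmosome and plakophilin genes JUP, DSP, DSC2, DSG2, PKP2, PKP3 and PKP4 were taken by name from the deposited count table, 7 of its 58735 genes. All 7 passed the filter on low counts and were among the 17191 genes tested, so no member dropped out, and each was followed through 28 libraries in 14 groups of 2. MDA-MB-231, the cell line used, is a human breast cancer line without the hormone receptors or HER2.

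A desmosome is an adhesive junction that ties the keratin filaments of neighbouring epithelial cells together. Desmogleins and desmocollins are its cadherins and span the gap between the cells. Plakoglobin and the plakophilins, armadillo-repeat proteins, bind the cadherin tails, and desmoplakin links them to the filaments. In carcinomas these junctions are known to hold cell clusters together, and plakoglobin and plakophilins also have roles outside the junction.

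All cells were grown with puromycin. Tpm2.1 cells overexpressed tropomyosin 2.1, an actin-binding product of the gene TPM2, and EV cells carried the empty vector. Cells were kept in suspension, on plates to which they could not attach, for 5 hours or for 1, 2 or 4 days, or were attached to culture plates for 6 hours. Suspended Tpm2.1 cells were separated on Annexin V beads, which hold cells that expose phosphatidylserine, giving at every time an apoptotic fraction, held by the beads, and a non-apoptotic one. The labels give no such step for suspended EV cells, so line and separation cannot be told apart in suspension. Each line is represented once, so that Tpm2.1 and other differences between the lines cannot be told apart either. TPM2 stood at 2461 to 7861 CPM (counts scaled to library size) in the 18 Tpm2.1 libraries and at 22.7 to 46.1 CPM in the 10 EV libraries.

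Depth was 13043529 to 27416335 counts per library. The 2 apoptotic libraries at 4 days stood apart: 18183 and 18676 genes had a count in them, against 21275 to 24530 in the other 26, and mitochondrial messenger RNA took 5.86% and 6.40% of their counts, against 1.12% to 5.34%. Values without them are given beside the results that rest on them. The label "epithelial cell" met mixed markers: CDH1, the epithelial cadherin, had 0 to 7 counts per library, while KRT8 and KRT18, keratins of simple epithelia, stood at 41.3 to 515 and 102 to 265 CPM and VIM, the mesenchymal filament vimentin, at 743 to 1530 CPM. The other listed epithelial markers were mostly low. KRT19 stood at 4.71 to 113 CPM. EPCAM, KRT7, CLDN4, CLDN7, ESRP1 and ESRP2 reached at most 10.5, 3.03, 11.4, 6.81, 3.53 and 5.82 CPM. The other listed mesenchymal markers were mixed too. FN1 stood at 301 to 1770 CPM and ZEB1 at 75.9 to 391 CPM, while CDH2, SPARC and CDH11 had at most 8, 17 and 5 counts. The leukocyte markers PTPRC, CD3E and LYZ had at most 12 counts in any library, and the muscle markers MYH6, MYH7, TNNT2 and DES at most 3. The erythroid markers HBB and HBA1 also had at most 3. Of the keratinocyte markers KRT10 stood at 23.4 to 51.5 CPM, while KRT1 had at most 1 count and IVL and LOR had 0.

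Per length, the desmoglein was the most abundant of the 7 transcripts. DSG2 (ENSG00000046604, hg38 chromosome 18, 31498043 to 31549008, plus strand), the desmoglein of simple epithelia, had group means of 23.4 to 45.5 FPKM, the deposited fragment count scaled to gene length and library. DSP (ENSG00000096696, chromosome 6, 7541575 to 7586717, plus strand) encodes desmoplakin and had group means of 12.95 to 29.8 FPKM. PKP4 (ENSG00000144283, chromosome 2, 158456964 to 158682879, plus strand), a relative of p120 catenin that also works at adherens junctions and in cytokinesis, had 5.48 to 11.998 FPKM. PKP2 (ENSG00000057294, chromosome 12, 32790745 to 32896840, minus strand) and PKP3 (ENSG00000184363, chromosome 11, 392614 to 404908, plus strand) encode desmosomal plakophilins and had 2.65 to 9.40 and 0.351 to 12.3 FPKM. JUP (ENSG00000173801, chromosome 17, 41754604 to 41786931, minus strand), which encodes plakoglobin, the relative of beta-catenin, had 0.728 to 14.9 FPKM. DSC2 (ENSG00000134755, chromosome 18, 31058840 to 31102522, minus strand), the desmocollin of simple epithelia, was the lowest in most groups at 0.303 to 2.60 FPKM.

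DSC2 and DSG2 lie 395520 bases apart in 1 cluster of desmosomal cadherin genes on chromosome 18, from 30990008 to 31549008. The other 5 genes of that cluster, DSC1, DSC3, DSG1, DSG3 and DSG4, had at most 4 counts in any library. PKP1 and CDSN were also below the filter. Genes that overlap a member on either strand had at most 10 counts per library and at most 1.98% of the member's count.

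The E-box CAGGTG, to which the repressors of the SNAI and ZEB families bind, is a known element of junction gene promoters. The sequences upstream of RefSeq start sites of the members were therefore searched for it on both strands. RefSeq (GRCh38.p14) start sites were matched for 5 members, with PKP2 and PKP3 not matched, and 250 bases before each start were read. The E-box was in 17.5% of all 250-base upstream windows of that RefSeq set. The windows of DSP, DSG2, DSC2 at its first listed start and JUP at its second held it and are shown because ZEB1, one of these repressors, stood at 75.9 to 391 CPM in these cells. The E-box, or its reverse complement CACCTG, is in capitals, and each sequence runs 5′ to 3′ on the gene's strand. The DSP window is chr6:7541421-7541670 and the DSG2 window chr18:31497927-31498176, both on the plus strand. The DSC2 window is chr18:31102422-31102671 and the JUP window chr17:41785977-41786226, both on the minus strand. As the windows follow RefSeq starts, this JUP window lies inside the gene coordinates given above. Those of DSP, DSG2 and DSC2 run partly into them.
DSP: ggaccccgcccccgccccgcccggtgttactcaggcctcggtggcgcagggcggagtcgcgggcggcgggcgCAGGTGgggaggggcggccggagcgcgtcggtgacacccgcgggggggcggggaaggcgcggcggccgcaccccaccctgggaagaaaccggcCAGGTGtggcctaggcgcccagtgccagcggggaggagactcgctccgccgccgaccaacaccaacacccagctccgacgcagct
DSG2: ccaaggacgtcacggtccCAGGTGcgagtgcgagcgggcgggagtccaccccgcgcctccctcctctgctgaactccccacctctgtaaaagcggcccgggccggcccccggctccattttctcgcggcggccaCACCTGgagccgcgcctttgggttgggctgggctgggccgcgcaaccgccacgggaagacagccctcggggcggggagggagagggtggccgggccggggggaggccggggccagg
DSC2: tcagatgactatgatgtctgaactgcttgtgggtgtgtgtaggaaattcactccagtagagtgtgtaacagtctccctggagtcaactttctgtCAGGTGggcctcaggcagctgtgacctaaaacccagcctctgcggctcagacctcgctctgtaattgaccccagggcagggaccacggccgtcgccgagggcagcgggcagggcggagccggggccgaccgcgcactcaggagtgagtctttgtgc
JUP: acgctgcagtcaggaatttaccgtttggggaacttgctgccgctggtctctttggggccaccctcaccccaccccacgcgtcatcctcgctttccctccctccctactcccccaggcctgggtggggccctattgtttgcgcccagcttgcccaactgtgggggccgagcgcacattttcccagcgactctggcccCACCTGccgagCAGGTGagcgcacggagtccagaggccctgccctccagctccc
DSP, DSG2 and the second JUP window held 2 matches each and DSC2 held 1. The first JUP window, the second DSC2 window and both PKP4 windows held none. The site AACCNGTT of Grainyhead-like factors, searched in the same way, was in none of the members' windows and in 1.49% of all windows. A match is a description of these letters and shows no binding.

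**Figure D1:**
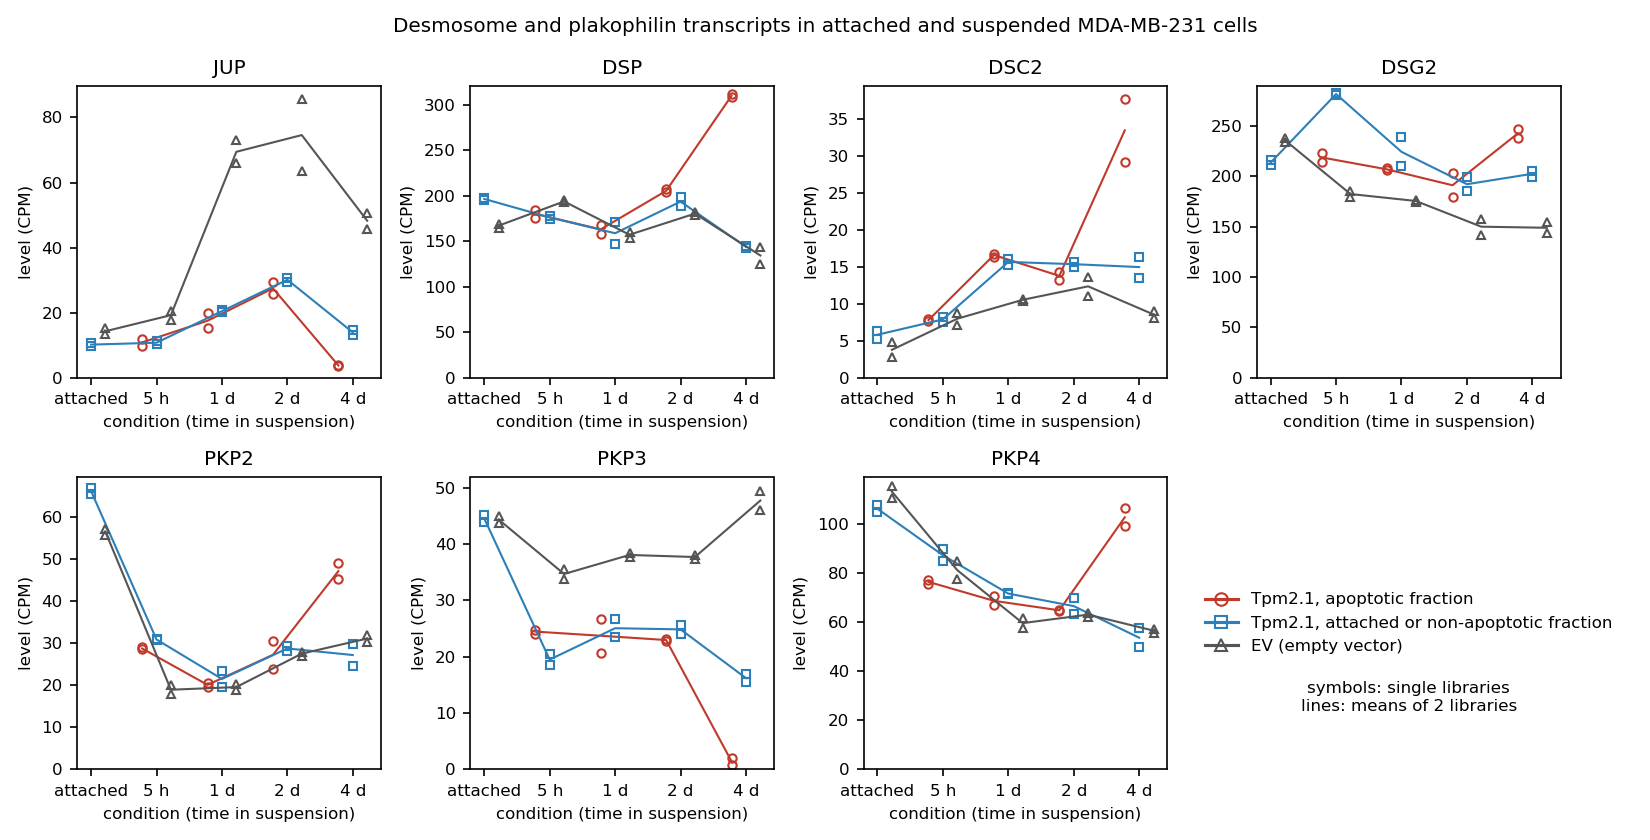
Level of each member in CPM (y axis, from 0) by condition (x axis, attached cells and time in suspension). Symbols are single libraries and lines join the means of 2 libraries, for apoptotic Tpm2.1 cells, attached or non-apoptotic Tpm2.1 cells, and EV cells. JUP peaked at 63.6 and 85.6 CPM in EV cells at 2 days, and PKP3 stood at 1.99 and 0.741 CPM in apoptotic Tpm2.1 cells at 4 days.

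Levels below are CPM, in the order replicate 1 and replicate 2, and changes are log2 fold changes with the standard error (SE) and the adjusted p of edgeR's quasi-likelihood test over all tested genes. A gene passed at an adjusted p under 0.05. The plot of levels by condition shows every library. In bulk samples fewer cells of a type and less RNA per cell cannot be told apart.

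Attached cells were compared first, Tpm2.1 over EV. Of the 7 members 3 rose and 1 fell in Tpm2.1 cells, against 20.5% of all tested genes passing in either direction, and the changes were small. JUP had 9.59 and 10.7 CPM in Tpm2.1 cells, against 15.2 and 13.3 CPM in EV cells, a change of -0.49 ± 0.14 (SE; adjusted p = 0.00788). DSC2 had 5.25 and 6.33 CPM in Tpm2.1 cells, against 2.73 and 4.77 CPM in EV cells, and rose by 0.62 ± 0.19 (adjusted p = 0.015). Both groups lay apart for either gene, though the EV libraries differed in DSC2 by more than the gap between the groups.

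DSP had 195 and 198 CPM in Tpm2.1 cells, against 169 and 165 CPM in EV cells, and rose by 0.23 ± 0.06 (adjusted p = 0.00326). PKP2 had 65.3 and 66.9 CPM in Tpm2.1 cells, against 55.6 and 57.2 CPM in EV cells, and rose by 0.23 ± 0.08 (adjusted p = 0.0469). DSG2 had 216 and 211 CPM in Tpm2.1 cells and 234 and 238 CPM in EV cells and did not pass (-0.14, adjusted p = 0.0864). PKP3 had 45.3 and 43.9 CPM in Tpm2.1 cells, against 44.98 and 43.8 CPM in EV cells, so the groups overlapped. PKP4 had 105 and 108 CPM in Tpm2.1 cells and 111 and 116 CPM in EV cells (-0.09, adjusted p = 0.315). With 1 attached library left out, 1 or 2 of the 4 calls held: JUP was lost without EV replicate 1 and without Tpm2.1 replicate 1, DSC2 without EV replicate 1 and without Tpm2.1 replicate 2, DSP without EV replicate 2, and PKP2 without any of the 4. The DSC2 value itself ran from 0.28 without EV replicate 1 to 1.08 without EV replicate 2.

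**Figure D2:**
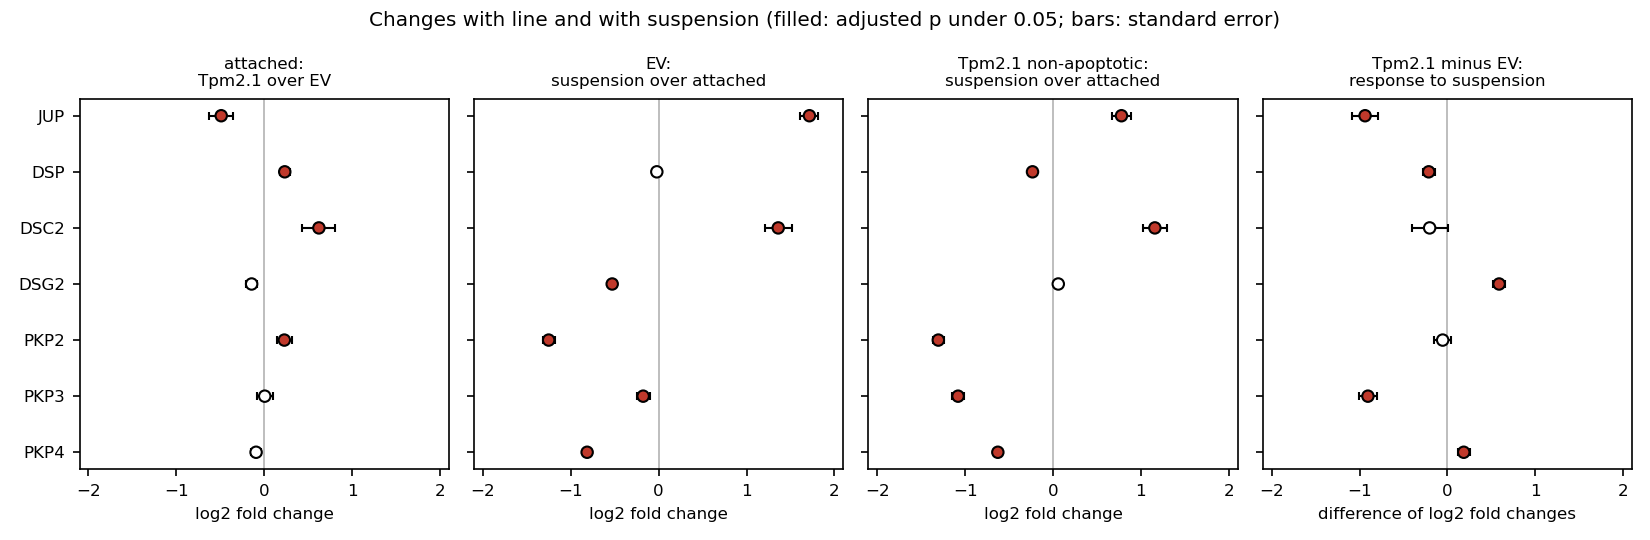
Log2 fold changes (x axis) of the 7 members (y axis) in 4 comparisons, with the mean over the 4 times for suspension. Bars are the standard error and filled symbols passed at an adjusted p under 0.05. JUP rose by 1.72 in EV cells and by 0.78 in non-apoptotic Tpm2.1 cells, and PKP2 fell in both, by 1.25 and 1.31.

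The next comparison set suspended over attached EV cells, as the mean over the 4 times. Attached cells of either line were taken at 6 hours alone. At 1, 2 and 4 days suspension and time in culture therefore cannot be told apart, here and in the Tpm2.1 line below. JUP and DSC2 rose and DSG2, PKP2, PKP3 and PKP4 fell, 6 of 7 members, against 66.3% of all tested genes. At 5 hours and at 1, 2 and 4 days 7, 6, 6 and 6 members passed, against 54.7%, 63%, 64.6% and 59.5% of all genes.

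JUP, encoding plakoglobin, had 17.8 and 20.6 CPM at 5 hours, 65.9 and 73.0 at 1 day, 63.6 and 85.6 at 2 days and 45.7 and 50.7 at 4 days in suspended EV cells, against 15.2 and 13.3 CPM in attached EV cells. Every suspended library lay above both attached ones, and the step was largest between 5 hours and 1 day. The mean change was 1.72 ± 0.10 (SE; adjusted p = 1.48e-17), with 0.43, 2.29, 2.39 and 1.76 at the 4 times in order.

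DSC2, the desmocollin, had 7.14 and 8.78 CPM at 5 hours, 10.6 and 10.4 at 1 day, 11.02 and 13.7 at 2 days and 8.09 and 8.97 at 4 days in suspended EV cells, against 2.73 and 4.77 CPM in attached EV cells. It rose by 1.36 ± 0.15 (adjusted p = 4.16e-10), and no suspended library overlapped the attached ones. DSG2, the desmoglein of the same gene cluster, moved the other way. It had 185 and 179 CPM at 5 hours, 175 and 177 at 1 day, 142 and 158 at 2 days and 144 and 154 at 4 days, against 234 and 238 CPM in attached EV cells. The fall was 0.53 on the log2 scale (SE 0.05; adjusted p = 8.44e-13), at every time.

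PKP2, a plakophilin that binds desmoplakin, had the largest fall of the 7 members in the mean over the 4 times, already present at 5 hours. At 4 days PKP4 fell more. PKP2 had 19.98 and 17.8 CPM at 5 hours, 18.8 and 20.2 at 1 day, 26.97 and 27.9 at 2 days and 30.2 and 31.9 at 4 days in suspended EV cells, against 55.6 and 57.2 CPM in attached EV cells. Its mean change was -1.25 ± 0.07 (adjusted p = 7.5e-19), and from 5 hours to 4 days in suspension it rose by 0.72 ± 0.11 (adjusted p = 3.53e-07) without reaching the attached level. PKP4 had 77.6 and 84.6 CPM at 5 hours, 57.6 and 61.4 at 1 day, 63.8 and 62.1 at 2 days and 55.6 and 57.3 at 4 days, against 111 and 116 CPM in attached EV cells, a change of -0.81 ± 0.05 (adjusted p = 1.02e-17).

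PKP3 and DSP changed little in EV cells. PKP3 had 35.7 and 33.7 CPM at 5 hours, 37.8 and 38.4 at 1 day, 38.1 and 37.4 at 2 days and 49.4 and 46.1 at 4 days in suspended EV cells, against 44.98 and 43.8 CPM in attached EV cells. It was below the attached level up to 2 days and not at 4 days (0.11, adjusted p = 0.337), and the mean of -0.18 (adjusted p = 0.0312) became -0.27 without 4 days. The calls at 1 day and at 2 days were lost without any single one of their 4 libraries, and that of the mean without either attached library or replicate 2 at 5 hours or at 4 days. DSP had 192 and 195 CPM at 5 hours, 160 and 154 at 1 day, 179 and 182 at 2 days and 125 and 143 at 4 days, against 169 and 165 CPM in attached EV cells. It lay above the attached libraries at 5 hours and 2 days and below them at 1 day and 4 days, and its mean did not pass (-0.02, adjusted p = 0.72). Within suspended EV cells, 4 days over 5 hours, JUP, PKP2 and PKP3 rose and DSP, DSG2 and PKP4 fell, against 52.8% of all genes passing.

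In non-apoptotic Tpm2.1 cells, suspension over attached, JUP and DSC2 rose and DSP, PKP2, PKP3 and PKP4 fell, 6 of 7 members, against 61.4% of all genes. At each of the 4 times 6 members passed, against 45.2%, 54.8%, 56.8% and 62.4% of all genes. JUP had 10.2 and 11.2 CPM at 5 hours, 20.1 and 20.8 at 1 day, 29.5 and 30.7 at 2 days and 14.8 and 13.02 at 4 days, against 9.59 and 10.7 CPM in attached Tpm2.1 cells. It overlapped the attached libraries at 5 hours and lay above them later, with a mean change of 0.78 ± 0.11 (SE; adjusted p = 8.06e-08).

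PKP3 had 18.5 and 20.4 CPM at 5 hours, 23.5 and 26.6 at 1 day, 24.1 and 25.6 at 2 days and 16.8 and 15.5 at 4 days in suspended non-apoptotic Tpm2.1 cells, against 45.3 and 43.9 CPM in attached Tpm2.1 cells. Its highest suspended library lay well below its lowest attached one, and the mean change was -1.08 ± 0.07 (adjusted p = 3.26e-16). PKP2 had 30.9 and 30.7 CPM at 5 hours, 23.2 and 19.6 at 1 day, 29.3 and 28.1 at 2 days and 29.6 and 24.6 at 4 days, against 65.3 and 66.9 CPM, a change of -1.31 ± 0.07 (adjusted p = 6.08e-20). PKP4 fell by 0.63 (SE 0.05) to 49.7 to 89.7 CPM in suspension, against 105 and 108 CPM in attached cells. All 3 plakophilins were thus below the attached level at each time.

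DSC2 had 7.55 and 8.18 CPM at 5 hours, 16.1 and 15.2 at 1 day, 14.99 and 15.7 at 2 days and 16.4 and 13.5 at 4 days, against 5.25 and 6.33 CPM in attached Tpm2.1 cells, and rose by 1.16 ± 0.13 (adjusted p = 9.76e-10). DSG2 stood at 281 and 283 CPM at 5 hours, the highest of its 14 groups, and at 239 and 210, 185 and 199, and 199 and 206 CPM at 1, 2 and 4 days, against 216 and 211 CPM in attached cells. Above the attached libraries at 5 hours and below them from 2 days, its mean did not pass (0.06, adjusted p = 0.283). DSP had 177 and 175, 146 and 171, 198 and 189, and 142 and 145 CPM at the 4 times, against 195 and 198 CPM, a change of -0.23 ± 0.05 (adjusted p = 2.96e-05). Within this fraction, 4 days over 5 hours, DSC2 rose by 0.92 and JUP by 0.37, and DSP, DSG2, PKP3 and PKP4 fell, against 54.9% of all genes passing. The JUP call was lost without 3 of the 4 libraries (5 hours replicate 1 and both at 4 days), after GC correction (0.19, adjusted p = 0.255) and under 5 other alternatives, and that of PKP3 without replicate 2 of either time.

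The responses of the lines were then compared directly, as the change with suspension in non-apoptotic Tpm2.1 cells minus that in EV cells. Of the 7 members 5 passed, against 33.5% of all genes. JUP rose less in Tpm2.1 cells, with a difference of -0.94 ± 0.15 (SE; adjusted p = 5.37e-06), and PKP3 fell more, with a difference of -0.90 ± 0.10 (adjusted p = 8.01e-09). DSG2 differed by 0.59 ± 0.07 (adjusted p = 7.75e-09), having fallen in EV cells and not passed in Tpm2.1 cells. DSP differed by -0.21 (adjusted p = 0.0111) and PKP4 by 0.19 (adjusted p = 0.0375). The PKP4 call was lost without any single library of 9, all 4 attached ones included, and the DSP call without replicate 2 of attached EV or of attached Tpm2.1 cells. PKP2 (-0.05 ± 0.10, adjusted p = 0.722) and DSC2 (-0.20 ± 0.21, adjusted p = 0.494) did not pass, which does not show that the lines responded alike. DSC2 passed at -0.66 without EV attached replicate 2, its higher EV library.

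At matched times in suspension, non-apoptotic Tpm2.1 over EV, 6 members passed in the mean, against 60.5% of all genes, and 4, 5, 3 and 4 at the single times in order, against 40.9%, 40%, 44.4% and 43.9%. JUP was lower in every Tpm2.1 library than in either EV library of its time, by -0.84, -1.77, -1.31 and -1.79 at the 4 times, with a mean of -1.43 ± 0.06 (SE; adjusted p = 1.28e-21). PKP3 was lower in the same way, by -0.83, -0.60, -0.60 and -1.56, with a mean of -0.90 ± 0.05 (adjusted p = 5.9e-18). DSG2 was higher at every time, by 0.63, 0.35, 0.36 and 0.44, with no overlap. DSC2 overlapped at 5 hours and was higher by 0.57 at 1 day and 0.81 at 4 days. PKP2 was higher by 0.71 at 5 hours and did not pass at any later time. This comparison and those with attached cells share libraries.

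GC content moved with these line differences. In suspended over attached EV cells, as the mean over the 4 times, the medians stayed at 0.05 to 0.07 in every range of GC content. At single times they moved. At 1 day they went from 0.09 under 40% GC to -0.003 from 60% GC on, and at 2 days from 0.04 to 0.14. The median change of all tested genes, non-apoptotic Tpm2.1 over EV, was 0.05 for genes under 40% GC and -0.23 for those of at least 60% GC. JUP has 61.5% and PKP3 66.7% GC in the longest transcript. After a correction for GC content JUP stood at -1.28 and PKP3 at -0.60 in this comparison, both passing, and PKP2 and PKP4 no longer passed (adjusted p = 0.0645 and 0.475). At the 4 times in order PKP3 then stood at -0.38, -0.44, -0.29 and -1.30, each passing. In the difference between the responses JUP then stood at -0.82 and PKP3 at -0.63, and PKP4 no longer passed (0.15, adjusted p = 0.0822). In non-apoptotic Tpm2.1 cells, suspended over attached, the mean for PKP3 was -0.80 after correction, and at 5 hours JUP passed at 0.34 and DSC2 did not (0.31, adjusted p = 0.142).

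**Figure D3:**
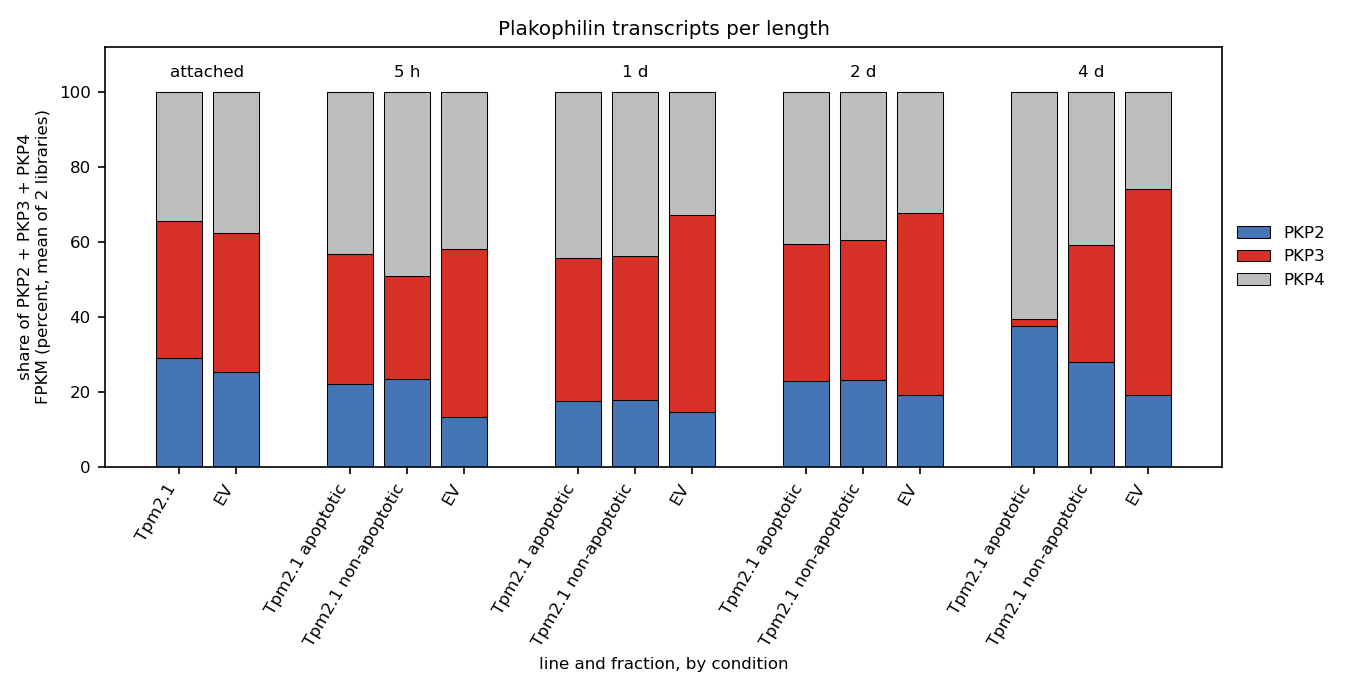
Shares of PKP2, PKP3 and PKP4 (y axis, percent of their summed FPKM, means of 2 libraries) by line, fraction and condition (x axis). PKP3 took 45.01% to 54.96% in suspended EV cells, 27.6% to 38.5% in non-apoptotic Tpm2.1 cells, and 2.02% in the apoptotic fraction at 4 days. The shares are not corrected for GC content.

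Per length, the lines differed in the share of PKP3 in suspension. In attached cells PKP3 took 36.5% ± 0.916 of the summed FPKM of PKP2, PKP3 and PKP4 in the Tpm2.1 line and 37.1% ± 1.05 in the EV line (SD, n = 2 each). In suspension PKP3 took 27.6%, 38.5%, 37.3% and 31.2% in non-apoptotic Tpm2.1 cells at the 4 times, against 45.01%, 52.8%, 48.7% and 54.96% in EV cells. By group mean PKP4 led in non-apoptotic Tpm2.1 cells, with 39.6% to 49.0%, and PKP3 in EV cells. At 2 days the Tpm2.1 libraries did not keep one order, since PKP3 took 38.9% and PKP4 38.2% in replicate 2. These shares carry no test of their own, and they read the same counts as the changes above. They are not corrected for GC content, which is 66.7% for PKP3, 46.6% for PKP2 and 47.0% for PKP4. In the mean over the 4 times, non-apoptotic Tpm2.1 over EV, PKP3 stood at -0.60 after GC correction, against -0.90 as fitted.

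Between the cadherins, DSG2 exceeded DSC2 per length in every library. The ratio of their FPKM was 75.2 ± 11.2 in attached Tpm2.1 cells and 137 ± 50.96 in attached EV cells (SD, n = 2 each). It was 72.4, 28.9, 25.3 and 27.7 in non-apoptotic Tpm2.1 cells at the 4 times, against 46.9, 33.7, 24.7 and 35.3 in EV cells. DSC2 made up 1.36%, 3.34%, 3.80% and 3.53% of the 2 cadherins in non-apoptotic Tpm2.1 cells at the 4 times, against 1.33% in attached Tpm2.1 cells. At 5 hours that was within the spread of the attached libraries. In EV cells DSC2 made up 2.12%, 2.88%, 3.90% and 2.76% at the 4 times, against 0.780% in attached EV cells. The apoptotic fraction at 4 days had the highest share of the 14 groups, 6.39%. These ratios and shares are not corrected for GC content. After that correction the 4-day change of DSC2, apoptotic over non-apoptotic, was 0.02.

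The last comparison set the apoptotic over the non-apoptotic fraction of suspended Tpm2.1 cells. At 5 hours 3 members passed, against 21.4% of all genes. DSG2 had 214 and 224 CPM in apoptotic cells, against 281 and 283 CPM in non-apoptotic cells, a change of -0.36 ± 0.06 (SE; adjusted p = 4.11e-05). PKP3 had 24.8 and 24.1 CPM in apoptotic cells, against 18.5 and 20.4 CPM in non-apoptotic cells (0.32, adjusted p = 0.0239), and PKP4 had 75.6 and 77.0 CPM, against 89.7 and 84.6 CPM (-0.19, adjusted p = 0.0315). The calls for PKP3 and PKP4 were lost without non-apoptotic replicate 1 or either apoptotic library, and after GC correction, where PKP3 stood at 0.01 and PKP4 at -0.13. All genes showed a GC trend at 5 hours too, with medians of -0.13 under 40% GC and 0.26 from 60% GC on.

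At 1 day and at 2 days 0 members passed edgeR's test, against 19.3% and 16.6% of all genes. At an unadjusted p under 0.05 the count was 0 at 1 day and 0 at 2 days, and DESeq2 called 0 at either time. JUP, for instance, had 15.2 and 19.7 CPM in apoptotic cells and 20.1 and 20.8 CPM in non-apoptotic cells at 1 day. DSG2 passed at 1 day at -0.21 without non-apoptotic replicate 2.

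At 4 days all 7 members passed, against 72.1% of all genes. PKP3 had 1.99 and 0.741 CPM in apoptotic cells, from 22 and 8 counts, against 16.8 and 15.5 CPM in non-apoptotic cells, a change of -3.55 ± 0.22 (adjusted p = 1.1e-17). It was -4.46 without apoptotic replicate 1 and -3.03 without apoptotic replicate 2. JUP had 3.62 and 3.80 CPM in apoptotic cells, against 14.8 and 13.02 CPM in non-apoptotic cells (-1.91 ± 0.21, adjusted p = 1.26e-10). These were the lowest levels of either gene in the 14 groups.

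The other 5 members were higher in the apoptotic fraction at 4 days. DSP had 308 and 311 CPM in apoptotic cells, against 142 and 145 CPM in non-apoptotic cells (1.11 ± 0.06, adjusted p = 6.54e-19). DSC2 had 37.7 and 29.2 CPM in apoptotic cells, against 16.4 and 13.5 CPM in non-apoptotic cells (1.16 ± 0.15, adjusted p = 7.46e-09). For both genes this was the highest of the 14 groups. PKP2 had 49.1 and 45.1 CPM, against 29.6 and 24.6 CPM (0.79), PKP4 had 98.9 and 106 CPM, against 57.4 and 49.7 CPM (0.94), and DSG2 had 238 and 248 CPM, against 199 and 206 CPM (0.26).

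**Figure D4:**
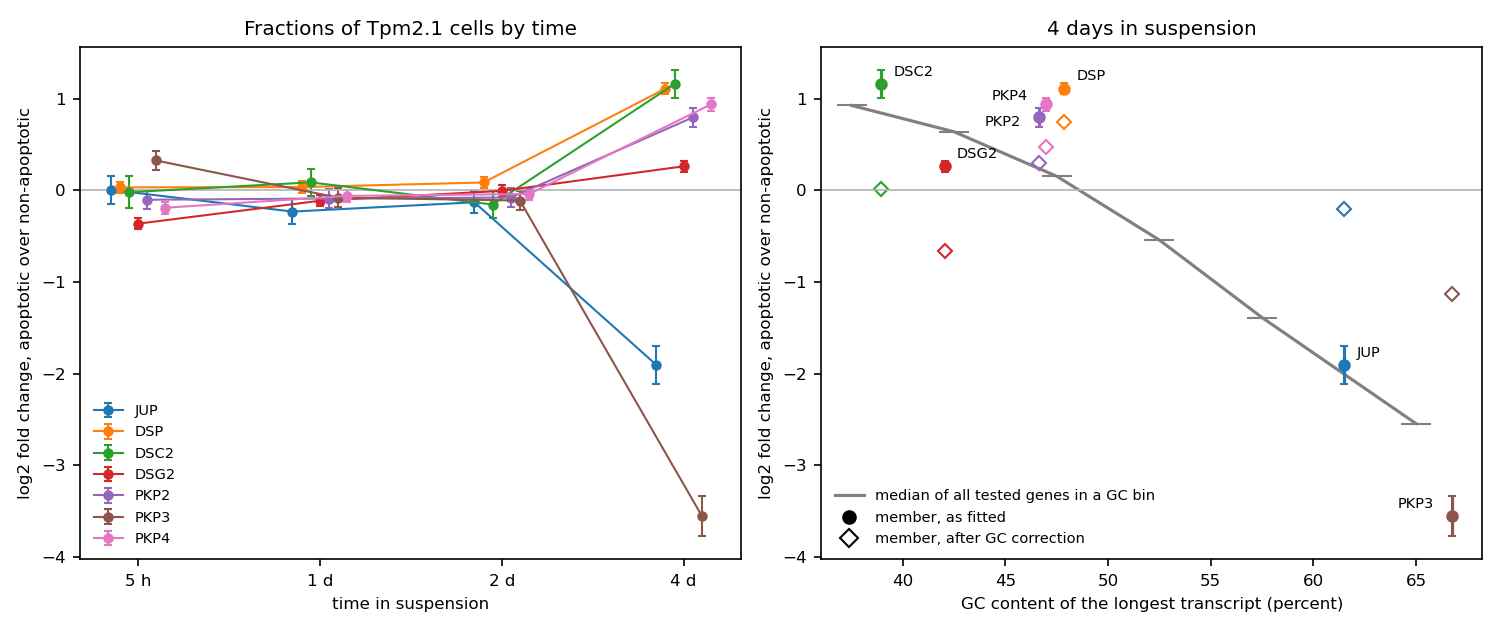
Left, log2 fold change of the apoptotic over the non-apoptotic fraction (y axis, bars are the SE) by time in suspension (x axis). Right, the same at 4 days against GC content (x axis, percent), for the members as fitted and after GC correction, with the median of all tested genes in 6 bins of GC content (grey, the open-ended outer bins drawn inside the axis). Members stay between -0.36 and 0.32 up to 2 days, and at 4 days PKP3 and JUP, the most GC-rich, lie lowest as fitted. After GC correction PKP3 (-1.13) and DSG2 (-0.67) lie lowest, and JUP stands at -0.20.

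GC content moved with the 4-day difference across all genes. The median change of all tested genes was 0.93 under 40% GC, 0.64 from 40% to 45%, 0.15 from 45% to 50%, -0.54 from 50% to 55%, -1.39 from 55% to 60% and -2.55 from 60% on. JUP and PKP3 were the members above 60% GC, and the other 5 had 38.9% to 47.9%. After GC correction DSP stood at 0.74 (adjusted p = 4.17e-14), PKP4 at 0.47, PKP2 at 0.29 (adjusted p = 0.00969) and PKP3 at -1.13 (adjusted p = 2.88e-04), still passing and smaller. JUP stood at -0.20 (adjusted p = 0.445) and DSC2 at 0.02 (adjusted p = 0.936) and did not pass, and DSG2 was lower, at -0.67. The part of low depth, fewer detected genes and a higher mitochondrial share in these results was not tested.

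The mean over the 4 times had 4 members higher and 2 lower in the apoptotic fraction, against 58% of all genes. Without 4 days 2 passed, against 38.5% of all genes, and DSC2, PKP2, PKP3 and PKP4 had the opposite sign, at -0.03, -0.09, 0.04 and -0.10. After GC correction with all 4 times DSC2 (0.02, adjusted p = 0.883) and PKP2 (0.04, adjusted p = 0.508) did not pass, DSG2 passed at -0.25 (adjusted p = 9.4e-10), and JUP stood at -0.20 and PKP3 at -0.38, against -0.57 and -0.86 as fitted. The fraction difference at 4 days minus that at 5 hours passed for all 7, against 66.9% of all genes, from -3.88 ± 0.25 for PKP3 and -1.91 ± 0.26 for JUP to 1.18 ± 0.23 for DSC2. After GC correction PKP3 stood at -1.13, DSP at 0.66, PKP4 at 0.60 and PKP2 at 0.33, still passing. JUP and DSC2 did not pass, and DSG2 passed with the opposite sign, at -0.42. The median of all tested genes in this contrast was then -0.36, against -0.05 as fitted, so DSG2 lay close to the median gene.

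Ranked by group mean, the members did not share an order. JUP ran from EV cells at 2 days and 1 day, whose ranges overlapped, through EV at 4 days and non-apoptotic Tpm2.1 cells at 2 days, to attached Tpm2.1 cells and the apoptotic fraction at 4 days. PKP2 and PKP4 were highest in both attached groups, and for PKP4 attached Tpm2.1 cells overlapped the apoptotic fraction at 4 days. PKP3 began with EV cells at 4 days and both attached groups, which overlapped each other, and every suspended Tpm2.1 group lay below every EV group. Of the 13 neighbouring pairs in each order, 4 to 7 overlapped. The highest over the lowest group mean was 20.1 for JUP and 34.97 for PKP3, and 7.36 and 2.95 without the apoptotic fraction at 4 days. It was 8.91 for DSC2 and 2.31 for DSP, and 4.42 and 1.53 without that fraction, and 3.50 for PKP2, 2.11 for PKP4 and 1.89 for DSG2, with and without it.

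Across the 14 group means, JUP and DSG2 ran opposite, with a Pearson r of -0.82 (-0.83 without the apoptotic fraction at 4 days, on 13). PKP2 and PKP4 ran together at 0.71 (0.67 without it). DSC2 and DSG2, neighbours in the genome, had an r of -0.03 (-0.28 without it). These are descriptions over groups that share lines and library preparation.

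The rest of the desmosome was read from a list of 11 further genes, of which PERP, PPL, EVPL and PLEC were tested. PPL was near the floor, with at most 12 counts per library and 0.699 CPM in a group, and enters the counts and medians below. All 4 rose in suspended EV cells, against 66.3% of all genes passing in either direction, with a median of 0.74 beside 0.06 for all genes: EVPL, the plakin envoplakin, rose by 0.74 and PERP, a membrane protein of desmosomes, by 0.73. In non-apoptotic Tpm2.1 cells PERP rose by 0.60, and PLEC, plectin, and EVPL fell by 0.78 and 0.39, with a median over the list of -0.41 beside 0.03. The response differed between the lines for EVPL (-1.12) and PLEC (-1.09), 2 of 4 genes, against 33.5% of all genes. Both went in the direction of JUP, PKP3 and DSP, while DSG2 (0.59) and PKP4 (0.19) went the other way. These list values are not corrected for GC content.

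Keratins, whose filaments desmoplakin links to the junction, and other intermediate filament genes were tested for 12 of 20 listed. The list also holds LMNA, a lamin of the nucleus, which is no anchor of desmoplakin. In suspended EV cells 3 rose and 8 fell, against 66.3% of all genes passing, with a median of -0.55 beside 0.06 for all genes. In non-apoptotic Tpm2.1 cells 10 fell and the other two did not pass, against 61.4% of all genes passing, with a median of -0.74 beside 0.03. KRT80, an epithelial keratin, fell by 2.91 in EV cells and by 4.02 in Tpm2.1 cells, and KRT8 by 0.61 and 1.18. KRT19 was lower in non-apoptotic Tpm2.1 than in EV cells in suspension, at -2.00.

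Among 24 of 29 listed regulators and partners that were tested, 17 were higher and 5 lower in non-apoptotic Tpm2.1 than in EV cells in suspension, against 60.5% of all genes passing, with a median of 0.15 beside -0.03. SNAI1 and ZEB2, repressors that bind the E-box shown in capitals above, were higher by 1.17 and 1.03. SNAI1 was low, with 9 to 437 counts per library and at most 16.5 CPM in a group. In suspended EV cells, 4 days over 5 hours, its change was -3.65. SNAI2, another of these repressors, was lower by 0.63 in attached Tpm2.1 cells, where ZEB2 was higher by 0.59. The members with an E-box window differed in direction in suspension, non-apoptotic Tpm2.1 over EV. DSG2 (0.44) and DSC2 (0.42) were higher, JUP (-1.43) was lower and DSP (0.02) did not pass. A link between these repressors and the members was not tested.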

How the data were processed

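Poly(A) RNA of 28 libraries was sequenced after random priming, per the labels' protocols. The authors deposited a table of whole-number counts per gene and a table of FPKM values. The submitters' processing notes name hg38 and DESeq2 without a role; aligner, counting tool and strand setting: not given in the sources used here. Deposited FPKM equalled count over gene length over a scaled library total (relative deviation at most 5.2e-15 for counts of at least 50). Identifiers and coordinates of the 58735 genes were those of GENCODE release 29. For 6 columns the name matched its label once a separator was dropped.

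A quasi-likelihood F test of edgeR 4.0.16 (R 4.3.3) was run on the counts, with filterByExpr, TMM scaling and 1 mean per group over 28 libraries (14 residual degrees of freedom); 17191 genes were tested in 25 contrasts. Means over times weight the 4 times equally. The SE is the absolute log2 fold change over the square root of F. The Benjamini-Hochberg adjustment was made within each contrast. GC content is that of the longest transcript. The scripts were tested on simulated data. The titles speak of biological replicates without saying how cultures were set apart, so p values measure the spread between these libraries.

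All 7 members are named. From 4 further lists (other desmosome genes, intermediate filaments, adherens junction relatives, regulators and partners) the rule named up to 4 passing genes per comparison with the largest change and at least 10 CPM in a group; not all are printed. The members and lists were chosen with earlier results of these data known. Alternatives were DESeq2 1.42.0, its size factors, the totals of the FPKM table, no filter, protein-coding genes alone, a replicate block, a GC correction (lowess, span 0.2, on 17183 genes), means without 4 days, the libraries of a comparison alone, and each library left out. A library left alone in its group took the spread of the other groups. One listed marker gene is not reported here.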

Additional observations from a re-analysis of the deposited data

Results flagged for a closer look

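The difference between the lines in the response to suspension, non-apoptotic Tpm2.1 minus EV, passed the test of the difference itself for 5 members: it was -0.94 for JUP, -0.21 for DSP, 0.59 for DSG2, -0.90 for PKP3 and 0.19 for PKP4. Attached libraries enter both responses. JUP, DSG2 and PKP3 passed with any single library left out and in each alternative run.

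The difference between the apoptotic and non-apoptotic fractions changed from 5 hours to 4 days for all 7 members: by -1.91 for JUP, 1.08 for DSP, 1.18 for DSC2, 0.63 for DSG2, 0.90 for PKP2, -3.88 for PKP3 and 1.13 for PKP4. These values rest on the apoptotic libraries at 4 days, and PKP3 stood at -4.79 without apoptotic replicate 1. After GC correction JUP (-0.01) and DSC2 (-0.11) did not pass and DSG2 turned to -0.42. PKP3 then stood at -1.13, DSP at 0.66, PKP4 at 0.60 and PKP2 at 0.33. The median of all tested genes was -0.36 after that correction, close to the DSG2 value.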

How the results depend on the processing

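With 2 libraries a group, the calls near the threshold depended on single libraries. In attached cells 4 members passed with all libraries and 1 to 2 with 1 left out; for the difference between the lines 5 passed, and 3 to 5 with 1 left out, the lowest without replicate 2 of attached Tpm2.1 cells. For the fractions, 6 passed in the mean over 4 times and 2 without 4 days, where DSC2 (-0.030), PKP2 (-0.091), PKP3 (0.044) and PKP4 (-0.10) turned sign. GC correction turned DSG2 at 4 days (-0.67) and the change of the fraction difference from 5 hours to 4 days for DSC2 (-0.11) and DSG2 (-0.42), and shifted the median of all genes in that last contrast by -0.306. The cause was not tested. PKP2 in attached cells was lost under 6 alternatives: DESeq2, its size factors, the FPKM totals, no filter, the replicate block and GC correction. JUP from 5 hours to 4 days in non-apoptotic cells was lost under 6: DESeq2, its size factors, the FPKM totals, no filter, protein-coding genes alone and GC correction. PKP3 in suspended EV cells was lost among protein-coding genes alone in the mean (-0.15), at 1 day and at 2 days, and at 1 day after GC correction (-0.12). DSG2 in attached cells passed without the filter (-0.17), in a fit of the attached libraries alone (-0.13) and when corrected for GC content (-0.15).

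Over all genes, attached cells gave 3516 calls, 5440 with the attached libraries alone and 2097 to 2248 with 1 left out. The fractions gave 9973 calls and 6612 without 4 days, 3683 at 5 hours and 1840 after GC correction, and 2858 at 2 days and 1538 with the libraries of that comparison alone. With 1 library left out the lowest counts for the fractions were 1699 at 5 hours (without non-apoptotic replicate 1), 1804 at 1 day (without apoptotic replicate 2) and 1154 at 2 days (without apoptotic replicate 1).

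At single times, suspended over attached, calls were lost in EV cells for PKP3 at 1 day and at 2 days without any of the 4 libraries, and for JUP at 5 hours without replicate 2 of either group. In non-apoptotic Tpm2.1 cells calls were lost at 5 hours for DSP without any of the 4 libraries and for DSC2 without 3 of them (all but attached replicate 2), at 2 days for DSG2 without either attached library or replicate 1, and at 4 days for JUP without replicate 1 of either group. In the means, PKP3 in EV cells was lost without either attached library or replicate 2 at 5 hours or at 4 days, PKP2 between the fractions without any single one of 6 libraries and PKP4 between the lines in suspension without any single one of 5. DSG2 between the fractions passed in the mean without non-apoptotic replicate 2 at 1 day or apoptotic replicate 2 at 5 hours, 2 days or 4 days.

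Across all groups together, the replicate numbers showed little pairing. Between groups, the replicate 1 minus replicate 2 differences correlated at -0.152 to 0.213, median 0.00756, over 91 pairs of groups, 10 of them over 0.1. These pooled values cannot show whether the fractions of a replicate number came from 1 culture, and the main fit treated them as unpaired. With the number as a replicate block, PKP2 in attached cells (0.23), PKP3 from 5 hours to 4 days in non-apoptotic cells (-0.27) and PKP3 in EV cells at 1 day (-0.22) no longer passed.

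Totals of 13043529 to 27416335 counts limit the members of few counts, DSC2 in attached cells (60 to 163) and PKP3 in apoptotic cells at 4 days (22 and 8).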

Other observations

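Genes related to the adherens junction, the sister junction that binds actin, were tested for 9 of 18 listed. In suspended EV cells 3 rose and 4 fell, against 66.3% of all genes passing, with a median of -0.01 beside 0.06 for all genes, and in non-apoptotic Tpm2.1 cells 3 rose and 4 fell, against 61.4%, with a median of 0.02 beside 0.03. CTNNAL1, a relative of alpha-catenin, fell by 1.80 in EV cells and by 1.61 in non-apoptotic Tpm2.1 cells, CDH4, R-cadherin, fell by 1.47 and 1.34, and VCL, vinculin, fell by 0.82 and 0.77. ARVCF, a relative of p120 catenin, rose by 0.89 in EV cells. AFDN, afadin, was higher by 0.53 in attached Tpm2.1 than in attached EV cells.

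Among 10489 protein-coding genes with at least 10 CPM in a group, those whose log2 level followed a member most closely over the 14 group means were MYO18A for JUP (Pearson r 0.96), GRK4 for DSP (0.92), ZNF568 for DSC2 (0.97), KPNB1 for DSG2 (0.92), PCNX4 for PKP2 (0.93), METRN for PKP3 (0.99) and PHTF2 for PKP4 (0.97). Without the apoptotic fraction at 4 days the values were 0.96, 0.77, 0.96, 0.92, 0.92, 0.93 and 0.97 in the same order. They describe these groups, which share lines and libraries.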
